A study of Mus musculus with 12 samples.

Results

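Fasn, Acaca, Scd1, Scd2, Srebf1, Nr1h3 and Abca1 are genes of fatty acid synthesis, of its transcriptional control and of cholesterol export. They were picked by symbol as 7 of the 760 genes counted, and all 7 passed the filter on low values that left 594 genes to test. The samples were live CD45+CD11b+ leukocytes, which bear a myeloid surface protein, sorted from mammary glands of female FVB/N mice into CD34- and CD34+ fractions. Low-input RNA was amplified and counted with barcoded probes (NanoString nCounter, mouse Fibrosis V2 panel). The 4 groups, each with 3 samples, were CD34- and CD34+ cells of mice fed a high-fat diet (HFD, 58Y1 from Test Diet), and CD34- and CD34+ cells of mice fed a low-fat diet (LFD, 2920X from Teklad Global). Each diet was fed for 16 weeks from 3 weeks of age. The submitters call the CD34- cells monocytes/macrophages and the CD34+ cells myeloid progenitors. No group carried a mutation or transgene in the labels.

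Acetyl-CoA carboxylase, encoded by Acaca, makes malonyl-CoA, and fatty acid synthase, encoded by Fasn, builds palmitate from it. The stearoyl-CoA desaturases of Scd1 and Scd2 then put a double bond into saturated fatty acids. Srebf1 encodes SREBP-1, a transcription factor that turns on these genes, and Nr1h3 encodes LXRα, a nuclear receptor for oxidised sterols. LXRα is known to induce both Srebf1 and Abca1, whose product exports cholesterol and phospholipid from macrophages to apolipoprotein A-I. LXR binds DNA with the retinoid X receptor, at a pair of short motifs that repeat in the same direction.

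Windows before the transcription start of 5 of the 7 genes were matched by symbol in RefSeq (GRCm38.p6), with 8 windows in all. Scd1 and Scd2 had no entry. A search of these windows, on both strands, for any run of 6 set bases, 4 free bases and 6 set bases shared by at least 3 of the genes returned 1 pattern, GGGTTANNNNCGGTCA. It stood in 3 of the 8 windows, those of Abca1, Fasn and 1 of the 3 starts of Srebf1, on the strand opposite to the gene. They are shown because the same 16-base arrangement stands before a gene of cholesterol export, a gene of fatty acid synthesis and the SREBP-1 gene. Each sequence below holds the 250 bases before the start, 5′ to 3′ on the gene's strand (minus), with the match in capitals. The windows are chr4:53159896-53160145 for Abca1, chr11:120824548-120824797 for Fasn and chr11:60210472-60210721 for Srebf1.
Abca1: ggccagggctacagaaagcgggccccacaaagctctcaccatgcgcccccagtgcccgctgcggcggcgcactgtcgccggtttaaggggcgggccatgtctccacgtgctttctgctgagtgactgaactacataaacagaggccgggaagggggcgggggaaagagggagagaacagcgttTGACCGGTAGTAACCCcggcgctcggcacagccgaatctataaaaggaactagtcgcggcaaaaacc
Fasn: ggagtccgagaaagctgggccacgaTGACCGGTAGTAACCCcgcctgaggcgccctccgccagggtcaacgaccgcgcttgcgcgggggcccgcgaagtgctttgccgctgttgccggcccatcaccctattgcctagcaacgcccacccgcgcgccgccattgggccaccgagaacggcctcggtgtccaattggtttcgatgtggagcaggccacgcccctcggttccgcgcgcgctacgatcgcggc
Srebf1: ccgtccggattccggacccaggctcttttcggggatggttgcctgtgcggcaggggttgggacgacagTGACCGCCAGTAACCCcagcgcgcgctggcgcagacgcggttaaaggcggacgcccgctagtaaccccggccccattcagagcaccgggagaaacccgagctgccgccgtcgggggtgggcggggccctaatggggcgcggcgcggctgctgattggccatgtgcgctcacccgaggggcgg
The match lay 67 to 52 bases before the start of Abca1 (chr4:53159947-53159962), 225 to 210 bases before that of Fasn (chr11:120824757-120824772) and 182 to 167 bases before that of Srebf1 (chr11:60210638-60210653). Read on the matching strand, Abca1 and Fasn both held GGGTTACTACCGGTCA and Srebf1 held GGGTTACTGGCGGTCA. Counting from 1 at the 5′ end of that element, Srebf1 differed from Abca1 by A9G and C10G, both inside the spacer. Over all 32851 windows of 300 bases, which also hold the 50 bases after the start, these letters occurred on either strand in 3 (0.00913%), namely these 3. A looser form that overlaps it, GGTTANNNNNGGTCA, occurred in 16 windows (0.0487%), among them the same 3. Only this shape of 6, 4 and 6 bases was searched, and the letters were taken from these promoters themselves. At least 3 windows therefore had to hold them, and their rarity is no test. A match is a description of sequence, not a bound site. A repeat of AGGTCA with the same spacing, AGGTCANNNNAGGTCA, was in 5 windows (0.0152%), and TCACNCCAC, a form of the sterol regulatory element, was in 408 (1.24%). Neither was in the 8 windows of the 5 genes searched.

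Recovered total counts were 78316 to 780070 per sample, and the shallowest library was CD34- replicate 3 under LFD. That sample held the highest value of all 12 in 3 of the 7 genes, and CD34+ replicate 3 under HFD held the lowest in 3. CD34+ replicate 2 under HFD stood apart by its fibroblast genes, whose summed linear level was 4940 there. Cd68, a macrophage gene, was present in each sample at 9.74 or more on the log2 scale. Itgam, which encodes the sorted CD11b, was not found among the 760 genes, so its level could not be checked. Cd34 itself was lower in CD34- cells under LFD (log2 difference -1.68, limma adjusted p = 0.0475) and missed the threshold under HFD (-0.34, 0.707). Its LFD CD34- values ran from 2.85 to 4.41, with a count as low as 2. In sorted bulk samples, fewer cells of a type and less RNA per cell cannot be told apart.

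Abca1, the cholesterol exporter, had deposited log2 values of 7.11, 6.40 and 7.43 in CD34- cells under LFD (replicates 1, 2 and 3), against 8.49, 7.67 and 8.10 in CD34+ cells. All 3 CD34- samples lay below all 3 CD34+ samples. Under HFD the values were 7.69, 7.64 and 7.65 in CD34- cells, against 7.89, 8.42 and 8.53 in CD34+ cells, again with no overlap. Group means were highest in HFD CD34+ cells (8.28 ± 0.34, SD, n = 3 here and below), then LFD CD34+ (8.09 ± 0.41), HFD CD34- (7.66 ± 0.029) and LFD CD34- cells (6.98 ± 0.53). In that order, only the last neighbours did not overlap. The recovered counts of Abca1 ran from 48 to 729.

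Nr1h3, the LXRα gene, stood at 6.78, 6.37 and 7.09 in CD34- cells and 7.35, 6.42 and 7.25 in CD34+ cells under HFD. Under LFD it stood at 5.58, 5.94 and 6.17 in CD34- cells and 6.78, 6.73 and 5.99 in CD34+ cells. The populations overlapped on both diets, while HFD CD34- samples were all above LFD CD34- samples. The order of means was HFD CD34+ (7.01 ± 0.51), HFD CD34- (6.74 ± 0.36), LFD CD34+ (6.50 ± 0.44) and LFD CD34- cells (5.90 ± 0.30), and all neighbours in it overlapped.

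Srebf1, the SREBP-1 gene, measured 6.67, 7.07 and 6.86 in CD34- cells and 5.62, 6.65 and 5.94 in CD34+ cells under HFD, with no overlap, although CD34- replicate 1 and CD34+ replicate 2 almost met. Under LFD it measured 6.32, 5.92 and 7.10 in CD34- cells and 6.58, 6.14 and 6.62 in CD34+ cells, which overlapped. HFD CD34- cells had the highest mean (6.87 ± 0.20) and did not overlap with the next group, LFD CD34+ cells (6.45 ± 0.26). LFD CD34- (6.44 ± 0.60) and HFD CD34+ cells (6.07 ± 0.53) followed, each overlapping with its neighbour. Transcripts of Srebf1 from its several starts were not told apart by the table.

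Scd1, a desaturase gene with the widest spread of the 7, read 8.0, 9.76 and 7.33 in CD34- cells and 6.92, 7.52 and 6.20 in CD34+ cells under HFD. CD34- replicate 2 was high and replicate 3 lay below CD34+ replicate 2. Under LFD Scd1 read 8.70, 8.52 and 9.33 in CD34- cells and 7.80, 7.36 and 7.87 in CD34+ cells, without overlap. The order of means was LFD CD34- (8.85 ± 0.43), HFD CD34- (8.37 ± 1.25), LFD CD34+ (7.68 ± 0.28) and HFD CD34+ cells (6.88 ± 0.66). Each neighbouring pair overlapped.

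Scd2, the other desaturase gene measured at depth, gave 8.76, 9.16 and 8.27 in CD34- cells and 8.01, 8.16 and 6.72 in CD34+ cells under HFD, with no overlap. CD34+ replicate 3 was far below the other samples. Under LFD Scd2 gave 8.58, 8.46 and 9.51 in CD34- cells and 8.23, 8.14 and 8.81 in CD34+ cells, which overlapped. Its group means had the same order as those of Scd1, at 8.85 ± 0.57 in LFD CD34-, 8.73 ± 0.45 in HFD CD34-, 8.39 ± 0.36 in LFD CD34+ and 7.63 ± 0.79 in HFD CD34+ cells, and each neighbouring pair overlapped.

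Fasn, the fatty acid synthase gene, was at 7.10, 7.78 and 7.07 in CD34- cells and 7.05, 7.08 and 6.13 in CD34+ cells under HFD. Under LFD it was at 7.19, 6.63 and 7.98 in CD34- cells and 7.14, 6.81 and 7.13 in CD34+ cells. All 4 groups overlapped with their neighbours, with means of 7.32 ± 0.40 in HFD CD34-, 7.27 ± 0.68 in LFD CD34-, 7.03 ± 0.19 in LFD CD34+ and 6.75 ± 0.54 in HFD CD34+ cells. Acaca, the carboxylase gene upstream of it, had only 6 to 33 counts and reached the filter's level in 4 of 12 samples. Its log2 values were 3.40 to 4.11 in CD34- and 3.72 to 5.05 in CD34+ cells under HFD, and 3.24 to 4.43 in CD34- and 3.68 to 4.61 in CD34+ cells under LFD.

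**Figure D1:**
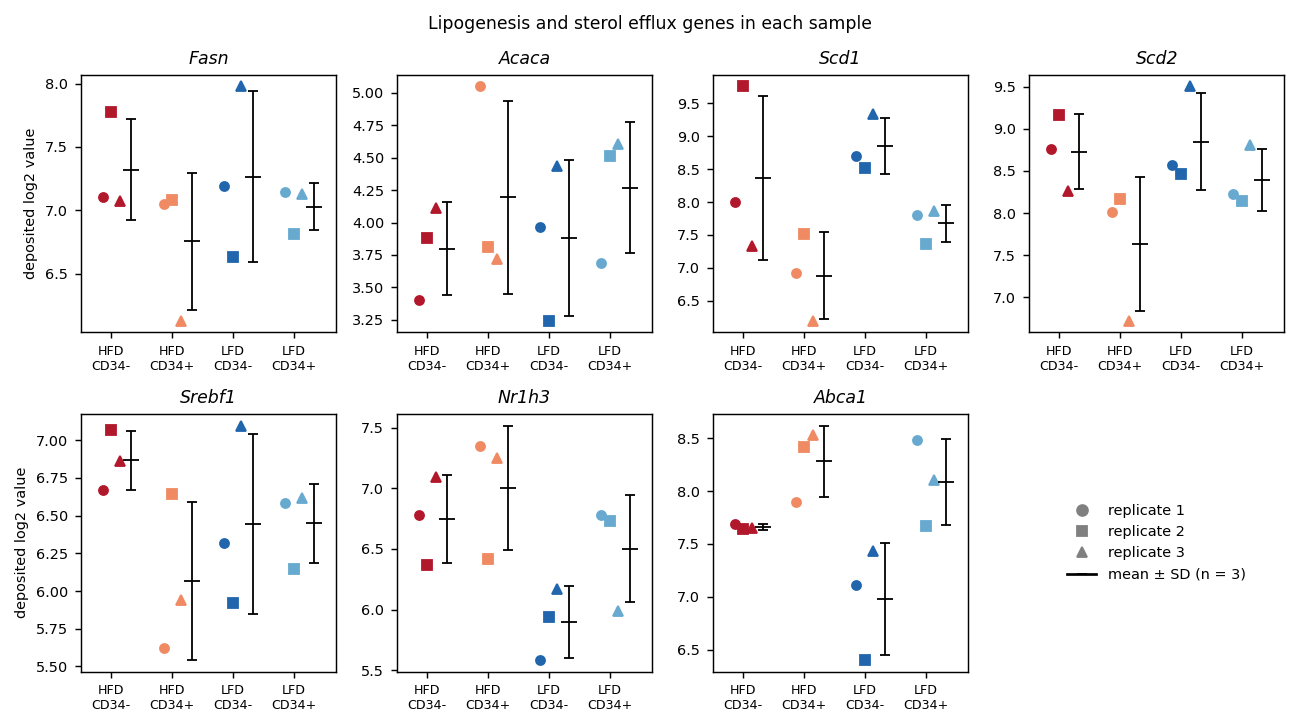
Deposited log2 values of the 7 genes, 1 panel a gene, with a marker for each sample (shape by replicate) and the mean ± SD of 3 beside it, for HFD CD34-, HFD CD34+, LFD CD34- and LFD CD34+ cells. Abca1 lies lower in CD34- than in CD34+ cells on both diets, Scd1 and Scd2 have higher CD34- means, and Acaca stays between 3.24 and 5.05.

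The comparison of CD34- with CD34+ cells asked how the sorted populations differ, and under LFD Abca1 was 2.15-fold lower in CD34- cells. Its log2 difference was -1.11 ± 0.31 (SE, limma adjusted p = 0.0361), and it was the 1 of the 7 genes that passed, where 9.76% of the 594 genes passed in either direction and 7.07% were lower. With the same-numbered samples of a diet taken as 1 mouse, as a random block, Abca1 passed (adjusted p = 0.00297) and Scd1 was also higher in CD34- cells, by 1.17 ± 0.34 (adjusted p = 0.0216, against 1.17 ± 0.51 and 0.181 without the block). That makes 2 of 7 genes, beside 22.1% of all genes in the same fit, and 2 of 7 with re-centring of the samples added, beside 21.4%. Without the block the same 2 had an unadjusted p under 0.05, as did 22.7% of all genes. The call for Abca1 rested on each of 7 samples. Without LFD CD34- replicate 1 or 2 its adjusted p was 0.0828 or 0.162, without LFD CD34+ replicate 1 or 3 it was 0.163 or 0.0783, and without HFD CD34- replicate 1, 2 or 3 it was 0.0573, 0.0525 or 0.0520.

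The remaining LFD differences did not pass. Nr1h3 differed by -0.60 ± 0.36 (limma adjusted p = 0.349), Scd2 by 0.46 ± 0.40 (0.563), Acaca by -0.39 ± 0.50 (0.731) and Fasn by 0.24 ± 0.38 (0.815). Srebf1 differed by -0.0036 ± 0.37 (0.993), with a 95% interval of -0.79 to 0.79. Groups did not overlap in 2 of the 7 genes, Scd1 and Abca1, against 25.1% of all genes.

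Under HFD limma called 0 of the 7 genes between CD34- and CD34+ cells, where 8.92% of the 594 genes passed. At an unadjusted p under 0.05 there were 3, Scd1, Scd2 and Srebf1, beside 23.6% of all genes, and limma-voom on recovered counts also called 0. Scd1 differed by 1.49 ± 0.51 (adjusted p = 0.0892), Scd2 by 1.10 ± 0.40 (0.113) and Srebf1 by 0.80 ± 0.37 (0.206), all with higher CD34- means. With the mouse as a block these 3 passed as higher in CD34- cells, Scd1 by 1.49 ± 0.34 (adjusted p = 0.00549), Scd2 by 1.10 ± 0.27 (0.00831) and Srebf1 by 0.80 ± 0.27 (0.0449). In that fit 23.9% of all genes passed and 16.7% were higher. Without HFD CD34- replicate 3 alone, in the fit with no block, Scd1 passed at 2.0 ± 0.50 (adjusted p = 0.0332). Without HFD CD34- replicate 2 its difference was 0.79 ± 0.41 (0.366). Without both HFD CD34+ replicate 2 and the shallow LFD CD34- replicate 3, an alternative added after the data were seen, Scd1, Scd2 and Srebf1 passed, 3 of 7 genes beside 15.2% of all genes. With HFD CD34+ replicate 3 left out instead, the sample lowest in 3 of the 7 genes, these genes did not pass. Scd1 was then at 1.145 ± 0.55 (limma adjusted p = 0.327), Scd2 at 0.64 ± 0.37 (0.438) and Srebf1 at 0.73 ± 0.42 (0.440).

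The scaling of the samples touched these values. All 594 genes had a median log2 difference of 0.21 under HFD, and setting each sample's median to 1 level shifted the differences by -0.28. Abca1 then passed as lower in CD34- cells under HFD, at -0.91 ± 0.28 (limma adjusted p = 0.0486), against -0.62 ± 0.31 (0.250) as deposited. In the re-centred fit 13.1% of all genes passed and 5.89% were lower. Quantile normalization gave the same call (-0.91 ± 0.25, 0.0378), beside 10.4% of all genes. With the block and the re-centring together, Abca1 (-0.91 ± 0.23, adjusted p = 0.0100), Scd1 (1.20 ± 0.33, 0.0147) and Scd2 (0.82 ± 0.24, 0.0211) passed, beside 20.5% of all genes. Srebf1 no longer passed in that fit (0.52 ± 0.24, adjusted p = 0.142).

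Fasn (0.57 ± 0.38, limma adjusted p = 0.392), Acaca (-0.39 ± 0.50, 0.669) and Nr1h3 (-0.26 ± 0.36, 0.688) stayed short of the threshold under HFD in each of these fits. Groups did not overlap in 3 of the 7 genes, with Scd2 and Srebf1 above and Abca1 below, against 31.8% of all genes. The median difference of the 7 genes was 0.57 under HFD and -0.0036 under LFD, beside medians of 0.21 and -0.14 over all genes.

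Within same-numbered samples, taken as 6 mice, the CD34- sample exceeded the CD34+ sample in Scd1 in 6 of 6. The differences were 1.08, 2.24 and 1.13 under HFD and 0.90, 1.16 and 1.46 under LFD. Scd2 was also higher in 6 of 6, by 0.75, 1.00 and 1.55 under HFD and 0.35, 0.32 and 0.70 under LFD. Abca1 was lower in 6 of 6, with differences of -0.20, -0.78 and -0.88 under HFD and -1.38, -1.27 and -0.67 under LFD. Both directions are frequent on the panel, since 14.5% of all genes were higher and 13.0% lower in all 6 mice. Srebf1 differed by 1.05, 0.42 and 0.92 under HFD and by -0.26, -0.23 and 0.48 under LFD, so its 3 HFD pairs pointed one way and its LFD pairs were mixed. Fasn was higher in 5 of 6 mice, Nr1h3 lower in 5 of 6, and Acaca higher in 3 and lower in 3.

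**Figure D2:**
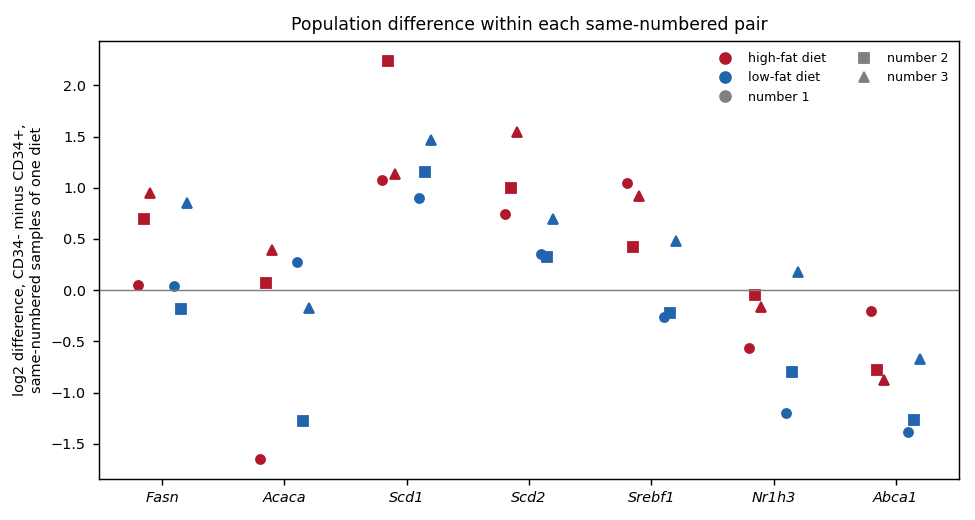
Difference in log2 value, CD34- minus CD34+, within each pair of same-numbered samples, with 3 pairs a diet for each of the 7 genes and a line at 0. All 6 points of Scd1 and of Scd2 lie above 0 and all 6 of Abca1 below, while the points of Acaca fall on both sides.

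The diet comparison asked how HFD feeding bears on each population. The 2 diets were different products of different makers, so fat content cannot be told apart from the rest of the feed. All 3 HFD CD34- samples exceeded all 3 LFD CD34- samples in Nr1h3, the sterol receptor gene, and in Abca1, the exporter gene. That makes 2 of the 7 genes, near the 29.0% of all genes that did not overlap. Limma called 0 of the 7, beside 5.05% of all genes, and both genes had an unadjusted p under 0.05, as did 21.9% of all genes. Limma-voom called 0 as well, and the block called 0, beside 5.39% of all genes. Nr1h3 differed by 0.85 ± 0.36 (adjusted p = 0.184, 95% interval 0.08 to 1.61) and Abca1 by 0.68 ± 0.31 (0.223, 0.0062 to 1.35). Re-centring moved all CD34- diet differences by -0.32, to 0.53 for Nr1h3 and 0.36 for Abca1.

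The genes of fatty acid synthesis gave no call for diet in CD34- cells. Scd1 differed by -0.48 ± 0.51 (limma adjusted p = 0.652), Scd2 by -0.12 ± 0.40 (0.935), Acaca by -0.08 ± 0.50 (0.962) and Srebf1 by 0.42 ± 0.37 (0.559). Fasn differed by 0.05 ± 0.38 (0.967), a sign that turned with re-centring (-0.26). The interval for Scd1 ran from -1.59 to 0.62, a range these samples could not narrow.

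In CD34+ cells limma called 0 of the 7 genes for diet, with 0 at an unadjusted p under 0.05, beside 2.36% and 17.5% of all genes, and limma-voom also called 0. The block called 0 as well, beside 3.20%. HFD and LFD CD34+ samples overlapped in all 7 genes, where 19.9% of all genes did not overlap. With all samples the desaturase genes had the largest differences, at -0.80 ± 0.51 for Scd1 (adjusted p = 0.455, 95% interval -1.90 to 0.31) and -0.76 ± 0.40 for Scd2 (0.344, -1.63 to 0.11). Without HFD CD34+ replicate 3 these were -0.46 ± 0.55 (0.807) for Scd1 and -0.31 ± 0.37 (0.806) for Scd2, and Nr1h3 was at 0.38 in that fit. Nr1h3 differed by 0.50 ± 0.36 (0.501), Srebf1 by -0.38 ± 0.37 (0.637), Fasn by -0.27 ± 0.38 (0.736), Abca1 by 0.19 ± 0.31 (0.787) and Acaca by -0.08 ± 0.50 (0.953).

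**Figure D3:**
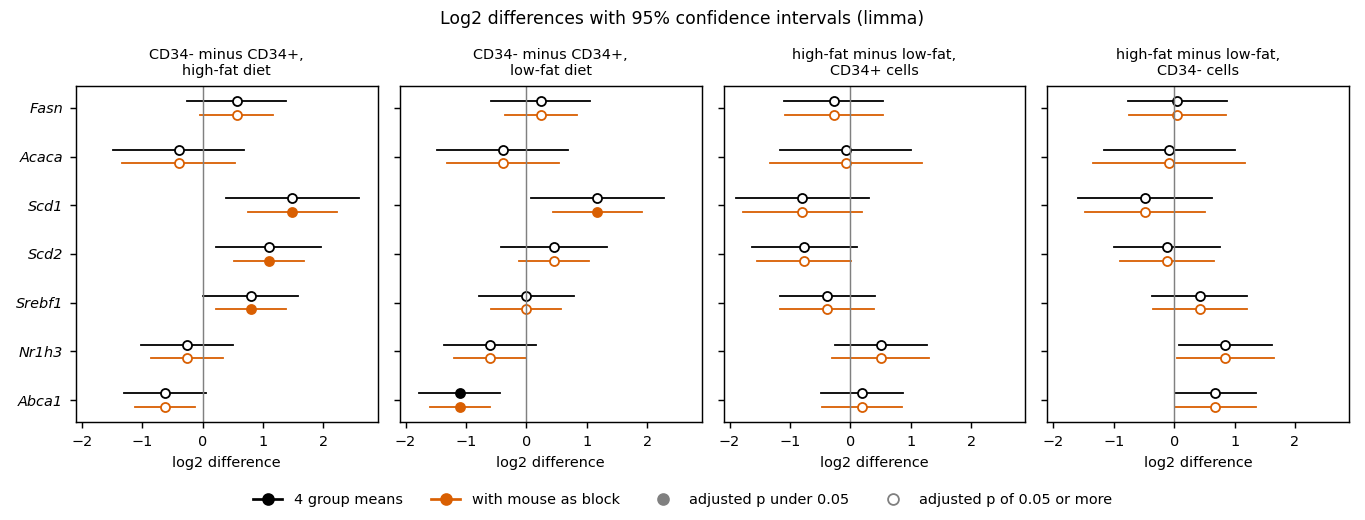
Log2 differences of the 7 genes from limma with 95% intervals, for CD34- minus CD34+ cells on each diet and for HFD minus LFD in each population, in black for the fit of 4 group means and in orange with the mouse as a block, filled where the adjusted p was under 0.05. The interval of Abca1 under LFD lies below 0, and the diet intervals in CD34+ cells all cross 0.

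Whether the population difference depended on diet was tested as an interaction, the HFD difference minus the LFD one. Limma called 0 of the 7 genes and 0 had an unadjusted p under 0.05, beside 0.00% and 8.75% of all genes. The block also called 0, beside 1.18%, and so did limma-voom. With all samples as deposited, Srebf1 had the largest term at 0.80 ± 0.52 (adjusted p = 0.707, 95% interval -0.31 to 1.92). Scd2 followed at 0.64 ± 0.57 (0.796) and Abca1 at 0.48 ± 0.44 (0.798), then Nr1h3 at 0.34 ± 0.50 (0.884), Fasn at 0.33 ± 0.54 (0.894), Scd1 at 0.31 ± 0.73 (0.937) and Acaca at -0.0060 ± 0.71 (0.998). The median term of all 594 genes was 0.36, and re-centring moved each term by -0.33, to 0.47 for Srebf1, 0.31 for Scd2, 0.15 for Abca1 and 0.01 for Nr1h3. So the call for Abca1 under LFD is not shown to differ from its HFD value.

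The authors' deposited tables list selected genes for each comparison, 135 for the populations under HFD, 31 for those under LFD, 7 for diet in CD34+ cells and 117 for diet in CD34- cells. In the authors' deposited table for the HFD populations Scd1, Scd2 and Srebf1 stand in cluster 2, a number of the authors' own. Their deposited table for diet in CD34- cells holds Nr1h3 and Abca1 in cluster 1. The authors' deposited tables for the other comparisons hold none of the 7, Abca1 under LFD included.

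Levels of the 7 genes varied together in part, as described over the 12 samples, which share mice, scaling and depth. Fasn and Scd2 had a Pearson r of 0.886 (Spearman rho 0.783), Scd1 and Scd2 0.883 (0.888) and Fasn and Scd1 0.793 (0.748). Without HFD CD34+ replicate 3 and LFD CD34- replicate 3 these were 0.63, 0.839 and 0.577 over 10 samples. Srebf1 correlated with Fasn at 0.75, with Scd2 at 0.672 and with Scd1 at 0.61. After re-centring of the samples these were 0.531, 0.508 and 0.549. Acaca had an r of 0.263 with Fasn, the enzyme that uses its product, and stood at few counts. Nr1h3 ran opposite to Scd1 (-0.707) and Scd2 (-0.6) and with Abca1 at 0.552, although within groups the last was -0.0605. Srebf1 and Abca1 had an r of 0.0842 over all samples and 0.757 after the group means were removed. Re-centring of the samples gave -0.173 for this pair, and the 10 samples gave 0.355, so its r depended on the treatment of the values.

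Beyond the 7 genes, those most like Scd1 over the 12 samples included the lymphocyte genes Ltb (r = 0.935) and Icos of T cells (0.928), at 0.835 and 0.84 after the group means were removed. Scd2 was most like the T cell receptor genes Cd3e (0.972, and 0.958 within groups) and Cd3g (0.956, 0.942), then Icos (0.954, 0.931). T and NK cell genes were present in these samples, which were sorted as CD11b+. The summed linear level of 9 of 9 T and NK cell genes was 3141 to 5948 in CD34- and 204.7 to 826.6 in CD34+ cells under HFD. Under LFD it was 2658 to 15720 in CD34- and 653.3 to 1813 in CD34+ cells. Limma called 9 of the 9 higher in CD34- cells under HFD and 6 under LFD. Blk, a kinase gene of B cells, was also higher in CD34- cells under HFD (2.9 ± 0.81, limma adjusted p = 0.0413) and missed the threshold under LFD (2.53 ± 0.81, 0.0639). Ms4a1, the CD20 gene of B cells, differed by 2.11 ± 0.66 under HFD (0.0587) and 1.20 ± 0.66 under LFD (0.308). The 4 measured of 5 neutrophil genes summed to 288.9 to 353.9 in CD34- and 70.42 to 157.6 in CD34+ cells under HFD, and to 135.5 to 432.5 in CD34- and 56.18 to 113.1 in CD34+ cells under LFD. Limma called 2 of these 4 higher in CD34- cells on each diet, Csf3r and Fpr1 under HFD and Csf3r and Mmp8 under LFD. The part of these other cell types in the Scd1 and Scd2 results was not tested.

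Abca1 was most like Nceh1, which encodes a cholesteryl ester hydrolase of macrophages (r = 0.911), the scavenger receptor gene Cd163 (0.911) and the growth factor gene Igf1 (0.867). After the group means were removed these were 0.84, 0.662 and 0.451. Nr1h3 was most like Adam17, a sheddase gene (0.902), Rapgef2 (0.899) and Il10, a cytokine gene (0.898), at 0.774, 0.73 and 0.838 within groups. The 4 measured of 8 macrophage genes summed to 4757 to 7564 in CD34- and 6868 to 11350 in CD34+ cells under HFD, and to 2343 to 2638 in CD34- and 2882 to 5377 in CD34+ cells under LFD. Limma called 1 of the 4, Cd163, lower in CD34- cells under LFD, and 3 of the 4 higher under HFD in CD34- cells. The medians of that sum were 8892 in HFD CD34+, 6741 in HFD CD34-, 4484 in LFD CD34+ and 2494 in LFD CD34- cells, the order of the Nr1h3 means. Abca1 had another order, with LFD CD34+ above HFD CD34- cells. Fibroblast genes were also lower where Abca1 was lower, in CD34- cells. The 4 measured of 7 summed to 160.6 to 260.9 in CD34- and 544.6 to 4940 in CD34+ cells under HFD, and to 38.65 to 90.11 in CD34- and 258 to 673.2 in CD34+ cells under LFD. Limma called 2 of the 3 tested, the collagen genes Col1a2 and Col3a1, lower in CD34- cells on both diets. The part of macrophage and fibroblast genes in the Abca1 and Nr1h3 values was not tested. The genes most like Srebf1 were Tgfbr2, a TGF-β receptor gene (0.92), Dock2 (0.898) and Itch (0.897). Those most like Fasn included Scd2 and Map3k1 (0.872), and those most like Acaca were Slc25a13 (0.7), Vamp8 (0.695) and Htra2 (0.69).

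**Figure D4:**
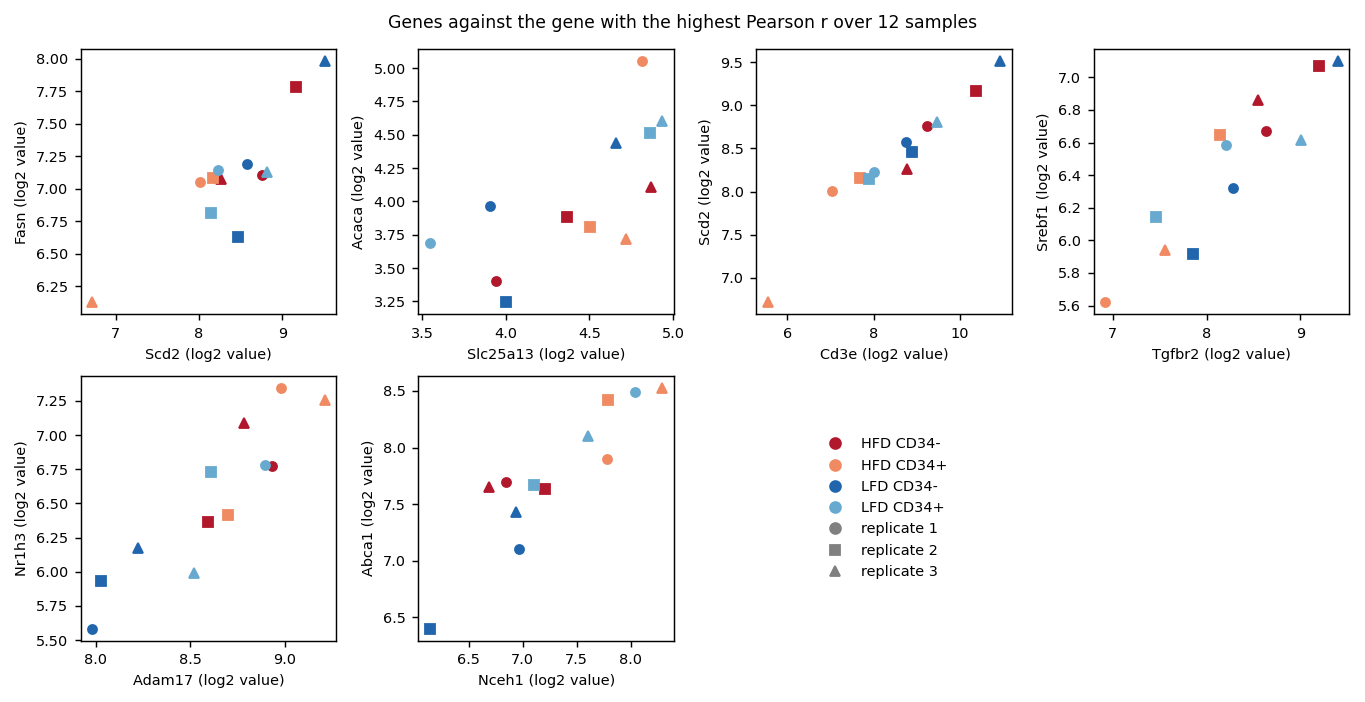
Log2 value of Fasn, Acaca, Scd2, Srebf1, Nr1h3 and Abca1 (vertical) against the log2 value of the gene with the highest Pearson r to it (horizontal), with 1 marker for each of the 12 samples, coloured by group and shaped by replicate. The points of Scd2 and Cd3e lie closest to a line (r = 0.972), those of Abca1 and Nceh1 have an r of 0.911 with LFD CD34- replicate 2 lowest, and those of Acaca scatter most (0.7).

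Fat cells make fatty acids too, and 4 of 8 fat cell genes were measured. Their sum was 757.8 to 1223 in CD34- and 704.5 to 1322 in CD34+ cells under HFD, and 93.72 to 220.7 in CD34- and 199.7 to 449.3 in CD34+ cells under LFD. Most of it was Fabp4, a lipid carrier of fat cells and macrophages, while Adipoq, the adiponectin gene that defines fat cells, had 1 to 50 counts a sample. None of the 6 listed genes of mammary epithelium was found among the 760 genes, so epithelial cells could not be checked by them.

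In 6 lists of other lipid genes, 33 of 114 were measured and 24 tested. In the list of fatty acid and glyceride synthesis the 6 measured genes, Acacb, Elovl6, Scd3, Scd4, Mlxipl and Pnpla3, stood at 1 to 28 counts and none was tested. Of 5 LXR partners and targets, Apoc2, an apolipoprotein gene, was higher in CD34- cells under HFD (1.47 ± 0.41, limma adjusted p = 0.0413). Apoc2 also rose with HFD in CD34- cells (1.83 ± 0.41, 0.0196). Pltp, the phospholipid transfer protein gene, was lower in CD34- cells under LFD (-2.14 ± 0.57, 0.0294). So 1 of the 5 passed in each of these comparisons, beside 8.92%, 5.05% and 9.76% of all genes. With the mouse as a block 2 of the 5 were higher and 1 lower in CD34- cells under HFD, and 1 higher and 1 lower under LFD, beside 23.9% and 22.1% of all genes.

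Of 7 genes of fatty acid uptake and storage, 0 were higher and 3 lower in CD34- than in CD34+ cells under HFD, and 0 and 2 under LFD, beside 8.92% and 9.76% of all genes in either direction. With the block 4 were lower on each diet, beside 23.9% and 22.1%. Lpl, lipoprotein lipase, was lower on both diets (-2.40 ± 0.53, limma adjusted p = 0.0214, and -2.81 ± 0.53, 0.00538), as was the carrier gene Fabp5 (-1.23 ± 0.35, 0.0477, and -2.25 ± 0.35, 0.00156). Lipa, lysosomal acid lipase, was lower under HFD (-1.03 ± 0.30, 0.0479). With HFD 3 of the 7 rose in CD34- cells, Fabp4 (2.75 ± 0.43, 0.00490), Lpl (2.29 ± 0.53, 0.0221) and Pparg, the regulator of fat storage (1.93 ± 0.41, 0.0180), and Fabp4 alone in CD34+ cells (1.89 ± 0.43, 0.0409). Over all genes 5.05% and 2.36% passed for diet in CD34- and CD34+ cells, and with the block 2 of the 7 rose in CD34+ cells, beside 3.20%. Limma called 0 of 5 genes of fatty acid oxidation in any comparison, with or without the block, with 1 at an unadjusted p under 0.05, the carnitine transferase gene Cpt1a for diet in CD34- cells (0.79 ± 0.29, adjusted p = 0.127). Npc1, the lysosomal cholesterol transporter and the 1 sterol gene tested, was not called, with differences between -0.19 and 0.48.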

How the data were processed

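The authors deposited log2 values of 760 genes in 12 samples, scaled per sample. The basis of that scaling is not given here. Each value was log2 of a count plus 1 constant for the sample, so counts were recovered, and 98.0% to 99.6% of them were whole within 0.1. Total counts of 78316 to 780070 limit low values, and counting error leaves out the amplification. The authors' other tables hold gene-centred log2 values of selected genes with the authors' cluster number (unit other, deposited as labels). Symbols matched the reference gene table for 748 genes, a synonym for 9 and nothing for 3.

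The 594 genes tested reached 20 on the linear scale in 3 or more samples. A linear model with 4 group means was fitted to the deposited log2 values in limma 3.58.1 (R 4.3.3, statmod 1.5.0), with a mean-variance trend. P-values were two-sided and adjusted over all tested genes by Benjamini-Hochberg, with a threshold of 0.05. The labels state no pairing of samples. Deviations from group means correlated at 0.306 to 0.434 between same-numbered samples of a diet, and at -0.375 to 0.143 between its differently numbered CD34- and CD34+ samples. Numbers were therefore taken to mark mice, an inference from the same values that were then fitted. The mouse was a random block (correlation 0.448) in an alternative fit. On simulated data with 200 changed genes, the model recovered 42.1% of log2 changes of 1 and 86.3% of 2 between the HFD populations. Between the LFD ones it recovered 46.9% and 87%, and for the interaction 19.4% and 60.6%. The simulated samples were drawn independently, without correlation within mice or shifts in scaling, so these rates may not hold for the real samples. The 200 changed genes of 594 also exceed the 53, 58 and 0 genes that limma called in these comparisons. Adjusted p-values depend on that share, so recovery in the real data may be lower.

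The 7 genes, the lists and the tests were chosen with earlier results of these data known. Named beside the 7 were, per list and comparison, up to 4 passing genes with the largest differences (or up to 2 with the smallest p), and the 3 genes of highest Pearson r with each. Some genes the rule takes are not reported here. Cd34 and marker genes were named as checks, and Prkaa1 was taken from its list by the same rule. Alternatives were no filter, re-centring, quantile normalization, no trend, the block, limma-voom and leaving out samples. Promoters are RefSeq's, searched in Python 3.11.15.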

Additional observations from a re-analysis of the deposited data

How the results depend on the processing

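For the 7 genes, 220 of the 245 results recomputed with all samples kept their direction and their side of the threshold. The count of the 7 genes past the threshold for CD34- against CD34+ cells under HFD was 0 as deposited, 1 after re-centring (Abca1) and 1 after quantile normalization (Abca1, -0.91, adjusted p = 0.0378). It was 3 with the mouse as a replicate block and 3 with the block and re-centring. Under LFD the count was 1 as deposited and 2 with the block, with or without re-centring. The block changed no call for diet or for the interaction. Leaving out 1 sample gave counts of 0 to 1 on each diet. Without both HFD CD34+ replicate 2 and LFD CD34- replicate 3, an alternative chosen after seeing the data, 3 genes passed under HFD: Scd1 (1.80, adjusted p = 0.0406), Scd2 (1.36, 0.0337) and Srebf1 (1.09, 0.0394).

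Signs that turned belonged to differences that had not passed. With re-centring, with or without the block, Srebf1 between the LFD populations was 0.04395, Fasn for diet in CD34- cells -0.2633, and the interactions of Fasn and Scd1 -0.002757 and -0.01782. With quantile normalization these were 0.0461, -0.3334, -0.08703 and -0.167, and Srebf1 for diet in CD34- cells was -0.02395 and the interaction of Nr1h3 -0.1077. With limma-voom the interaction of Acaca was 0.1847. Re-centring shifts every difference of a comparison by the same amount, and the cause of the turn with voom was not tested. With 1 sample left out, 12 differences turned. Ranges were -0.63 to 0.034 for Acaca between the HFD populations, and -0.12 to 0.56 for Fasn and -0.33 to 0.26 for Srebf1 between the LFD ones. For diet in CD34+ cells they were -0.44 to 0.039 for Fasn, -0.50 to 0.16 for Acaca and -0.014 to 0.39 for Abca1. For diet in CD34- cells they were -0.26 to 0.41 for Fasn, -0.40 to 0.20 for Acaca, -1.18 to 0.032 for Scd1 and -0.34 to 0.21 for Scd2. Interactions ran from -0.32 to 0.42 for Acaca and -0.38 to 0.83 for Scd1, with Scd1 at 0.87 without the pair of libraries named above. Low counts limit Acaca, and 3 samples a group limit all tests.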

Other observations

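Prkaa1 encodes a catalytic subunit of AMPK, the kinase known to inhibit acetyl-CoA carboxylase. Of 6 tested regulators of the insulin, AMPK and mTOR pathways, limma called 0 in any of the comparisons. With the mouse as a block Prkaa1 alone passed, as higher in CD34- than in CD34+ cells under HFD (0.75, adjusted p = 0.0371, against 0.135 without the block). That is 1 of the 6, where 23.9% of all genes passed in that fit and 16.7% were higher. Under LFD its difference was -0.55 (adjusted p = 0.303). The interaction was 1.29 ± 0.42 (SE) and did not pass (limma adjusted p = 0.497), nor did it with the block (0.103). These values are on the scaling as deposited. Re-centring moved each difference between the HFD populations by -0.28 and each interaction by -0.33, and Prkaa1 calls after it are not given here.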
